A study of Mus musculus with 6 samples.

Results

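The kinases, adaptors and effectors that carry the B cell receptor signal inward were followed in mouse pre-B cells made leukaemic by BCR-ABL1, the fused tyrosine kinase that the Philadelphia chromosome encodes in acute lymphoblastic leukaemia. The set was a list of 34 genes, of which 32 were measured here, out of 19938 genes on the array. A gene counted as measured when a probe set carried its symbol and no other, and each of the 32 had 1 such probe set. The remaining genes of the list, Lyn and Lck, were not analysed here. The list was not chosen from a threshold on these arrays, but earlier results of these data were known when it was drawn up.

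Total RNA was hybridised to Affymetrix arrays from Dusp6 KO cells (3 arrays) and Dusp6 WT cells (3 arrays). All 6 samples carried BCR-ABL1 and had the labelled strain background C57Bl/6-SV129j, so no untransformed cells entered the comparison. The labels do not give the ages of the mice, the site of the deletion in Dusp6 or whether arrays of a genotype came from separate mice or cultures, so p-values reflect array-to-array spread that could be purely technical. The question was how transcripts of this signalling layer differ in leukaemia cells that lack Dusp6, the phosphatase that switches off ERK in the cytoplasm.

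As background, the B cell receptor and its precursor form, the pre-B cell receptor, have no kinase activity of their own. Src family kinases phosphorylate the receptor's signalling chains, Syk and Tec family kinases are then recruited, and adaptors assemble phospholipase C gamma, Vav exchange factors and lipid kinases at the membrane. The second messengers made there open calcium stores and activate protein kinase C, RAS and ERK, NF-kB and NFAT. In BCR-ABL1 leukaemia the oncogenic kinase can drive many of the same steps without the receptor.

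Signals are given on a log2 scale, and every difference is KO minus WT. A gene was called when limma's test, adjusted by the Benjamini-Hochberg method over all 19938 genes, gave an adjusted p under 0.05. "Rose" and "fell" are used of called genes, and interval means the unadjusted 95% interval of the difference. Array medians lay between 8.38 and 8.42 and lower quartiles between 7.12 and 7.16. Dusp6 itself averaged 9.08 ± 0.058 in KO cells and 12.44 ± 0.072 in WT cells (SD, n = 3 each), 10.3-fold lower.

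Of the 32 genes, 8 rose and 3 fell in KO cells, 34.4% of the set. Blk, Lat2, Plcg2, Sh3bp2, Prkcd, Dok3, Ptprc and Vav2 were higher, and Lat, Cblb and Plcg1 were lower. Most of the changes were small, between 0.14 and 0.70 on the log2 scale in size, and Blk was the only gene of the set called and past 1.5-fold. Over all genes tested, 19.8% were called, 9.66% higher and 10.2% lower, and 3.2% were called and past 1.5-fold. The set was brighter than most genes: 30 of the 32 had a mean signal at or above the median gene, and among all genes that bright 30.8% were called. The share of called genes in the set was therefore close to that of bright genes at large. Differences lay above 0 in 20 of the 32 (62.5%), against 50.8% of all genes and 46.7% of bright genes, and the median difference was 0.069, against 0.0018 over all genes.

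The KO and WT arrays did not overlap in 19 of the 32 genes (59.4%). That compares with 35.7% of all genes and 50.9% of genes at or above the median signal. All 11 called genes were among the 19, together with 8 of the 21 that were not called. The set's standard errors ran from 0.040 to 0.076, so differences of about the size of those seen in Rac1 or Was were not detectable with 3 arrays a group.

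**Figure D1:**
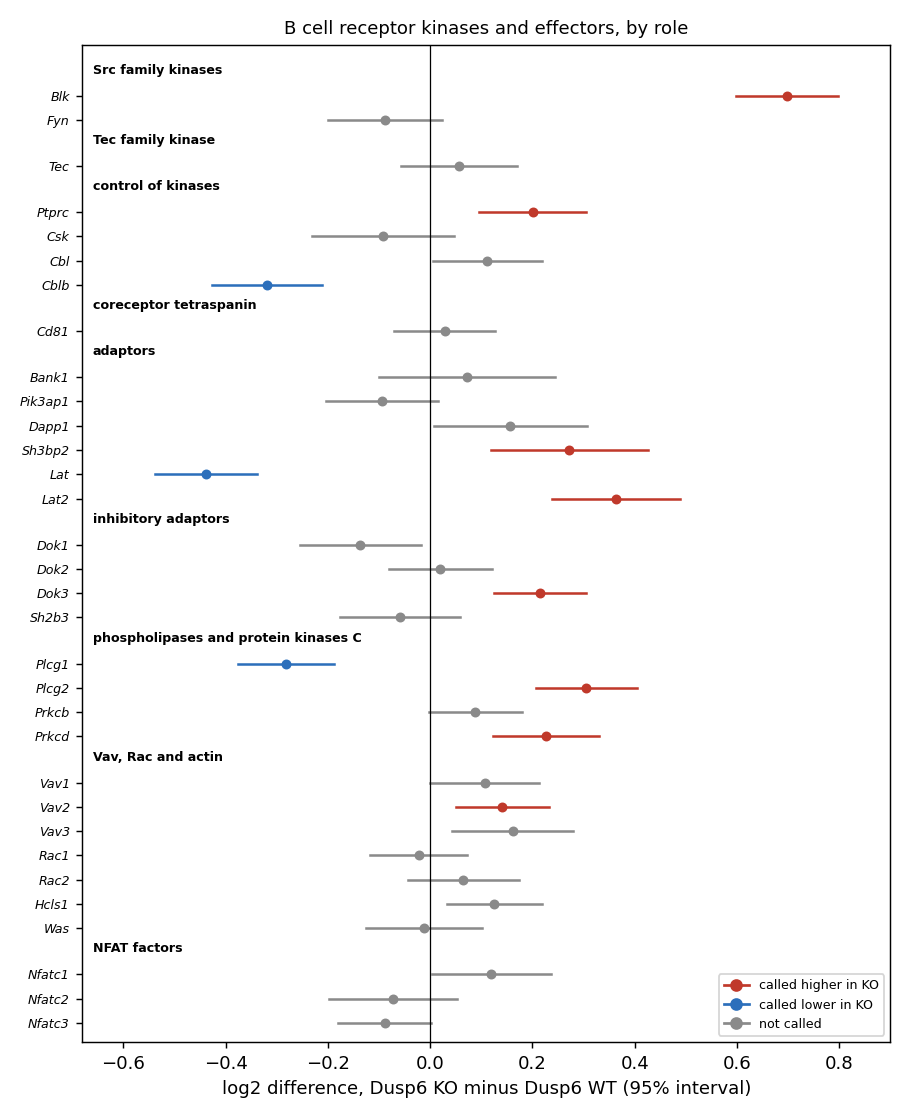
Log2 difference (KO minus WT) of the 32 measured genes on the horizontal axis, grouped by role down the vertical axis; points are limma estimates, bars unadjusted 95% intervals, and colours show called higher, called lower or not called. Blk stands farthest to the right at 0.70 and Lat farthest to the left at −0.44, and the phospholipases Plcg1 and Plcg2 lie on opposite sides of 0.

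The kinases at the top of the pathway were represented by Blk, Fyn and Tec. Blk is a Src family kinase found mainly in B lineage cells, where it acts downstream of the receptor. Its log2 signals were 12.38, 12.29 and 12.39 on the KO arrays, against 11.67, 11.66 and 11.64 on the WT arrays. The lowest KO array was above every WT array, and Blk rose 1.62-fold (log2 difference 0.70 ± 0.044, SE; limma adjusted p = 3.85e-06). Fyn, a Src family kinase shared with T cells and other tissues, had signals of 12.55, 12.70 and 12.59 in KO cells and 12.72, 12.67 and 12.72 in WT cells. The groups overlapped, since KO replicate 2 lay above WT replicate 2, and the interval of Fyn's difference ran from −0.20 to 0.023. Tec, the founding member of the kinase family that includes Btk, did not pass the test (0.057, interval −0.056 to 0.17).

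Of the 4 genes that control these kinases, Ptprc rose, Cblb fell, and Csk and Cbl did not pass. Ptprc encodes CD45, a transmembrane phosphatase that removes the inhibitory phosphate from Src family kinases. It had signals of 12.86, 12.98 and 12.88 in KO cells, against 12.67, 12.73 and 12.72 in WT cells, without overlap. Ptprc rose by 0.20 ± 0.046 (limma adjusted p = 0.0136), a call that was lost without WT replicate 1 (adjusted p = 0.0577). Csk, the kinase that adds the inhibitory phosphate, differed by −0.092 (interval −0.23 to 0.046) and was not called. Its signals were 12.44, 12.21 and 12.41 in KO cells and 12.44, 12.48 and 12.41 in WT cells. KO replicate 2 was the lowest, KO replicate 3 lay just below the lowest WT array, and KO replicate 1 lay within the WT range.

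Cbl and Cblb encode ubiquitin ligases that mark activated receptors and kinases for removal and so limit signalling. Cblb had signals of 11.91, 11.99 and 11.87 in KO cells and 12.29, 12.22 and 12.22 in WT cells. Every KO array was below every WT array, and Cblb fell 1.25-fold (−0.32 ± 0.047; limma adjusted p = 0.00113). Cbl differed by 0.11 in the opposite direction and did not pass (adjusted p = 0.143), although its KO signals (12.22, 12.18 and 12.25) lay just above its WT signals (12.08, 12.17 and 12.06).

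Cd81, a tetraspanin of the cell surface, was close to equal between the groups. Its signals were 13.33, 13.24 and 13.34 in KO cells and 13.27, 13.28 and 13.28 in WT cells, and the interval of the difference was −0.070 to 0.13.

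Among 6 adaptors that link kinases to their targets, 2 rose and 1 fell. Lat2, also known as NTAL or LAB, is a membrane scaffold of B cells, mast cells and other myeloid cells. Its signals were 8.44, 8.49 and 8.37 in KO cells, against 8.04, 8.0 and 8.17 in WT cells. Lat2 rose 1.29-fold (0.36 ± 0.056; limma adjusted p = 0.0014), and its signal was below the array median on 4 of the 6 arrays. Lat, the related scaffold best known from T cells, had signals of 9.76, 9.71 and 9.70 in KO cells and 10.19, 10.19 and 10.11 in WT cells. It fell 1.36-fold (−0.44 ± 0.044; limma adjusted p = 8.81e-05), the largest decrease of the set, and every KO array was below every WT array.

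The 250 bases upstream of the Lat start in RefSeq (GRCm38.p6, chr7:126369569-126369818, minus strand) are printed because Lat fell most, with capitals marking the letters of the Ikaros core TGGGAA, here on the reverse strand.
Lat: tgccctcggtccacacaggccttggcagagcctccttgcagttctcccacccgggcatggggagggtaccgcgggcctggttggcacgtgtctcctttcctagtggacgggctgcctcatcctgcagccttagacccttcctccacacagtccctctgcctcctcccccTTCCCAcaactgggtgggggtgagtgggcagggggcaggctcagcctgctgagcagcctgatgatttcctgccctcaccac
That core, searched on both strands, occurred in 21.6% of all 32851 RefSeq windows of this length. In the Lat window its match lay at positions −81 to −76 relative to the start.

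Sh3bp2, an adaptor that binds Syk and Vav proteins and phospholipase C gamma, had the widest spread of the called genes. Its signals were 10.02, 9.79 and 9.88 in KO cells, against 9.65, 9.71 and 9.52 in WT cells. The groups did not overlap, but the nearest arrays, KO replicate 2 and WT replicate 2, were close. Sh3bp2 rose by 0.27 ± 0.068 (limma adjusted p = 0.0199). The call was lost without KO replicate 1 (adjusted p = 0.0534), KO replicate 3 (0.052) or WT replicate 3 (0.067).

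The other adaptors did not pass. Dapp1, also called Bam32, binds the lipid products of PI3K and had KO signals of 11.35, 11.37 and 11.38, against 11.37, 11.12 and 11.14 in WT cells. WT replicate 1 lay within the KO range, apart from the other WT arrays, and without it Dapp1's difference was 0.24 (adjusted p = 0.0104) in place of 0.16 (adjusted p = 0.145). Bank1, a scaffold for Src family kinases and calcium channels, had a high KO replicate 2 (10.50), while its other 5 signals lay between 10.18 and 10.24. Its difference of 0.072 was −0.026 without that array. Pik3ap1, or BCAP, which recruits PI3K, had KO signals of 11.92, 11.81 and 11.95 just below its WT signals of 11.96, 12.00 and 12.00, with a difference of −0.094 (adjusted p = 0.235).

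Of the 4 inhibitory adaptors, 1 rose and 0 fell. Dok3 recruits the lipid phosphatase SHIP1 and Grb2 and restrains calcium and JNK signalling in B cells. It had signals of 11.61, 11.63 and 11.67 in KO cells, against 11.41, 11.43 and 11.43 in WT cells. The groups were clearly apart, and Dok3 rose by 0.21 ± 0.040 (limma adjusted p = 0.00443). Dok1, which recruits RasGAP, differed by −0.14 (adjusted p = 0.108), with KO signals of 10.13, 10.02 and 10.16 below WT signals of 10.26, 10.29 and 10.18. Dok2 (0.020, interval −0.080 to 0.12) and Sh2b3 (−0.058, interval −0.18 to 0.059), which encodes the cytokine receptor brake LNK, overlapped between the groups.

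The phospholipases C gamma, which cut a membrane lipid into the messengers that release calcium and activate protein kinase C, changed in opposite directions. Plcg2 is the main form in B cells and Plcg1 the main form in T cells and many other tissues. Their upstream sequences are shown because these related genes diverged, each as the 250 bases before the RefSeq start of build GRCm38.p6. Plcg2 is at chr8:117498025-117498274 and Plcg1 at chr2:160731060-160731309, both on the plus strand. Capitals mark letters of the E2A-type E-box CAGGTG or the Ikaros core TGGGAA on either strand.
Plcg2: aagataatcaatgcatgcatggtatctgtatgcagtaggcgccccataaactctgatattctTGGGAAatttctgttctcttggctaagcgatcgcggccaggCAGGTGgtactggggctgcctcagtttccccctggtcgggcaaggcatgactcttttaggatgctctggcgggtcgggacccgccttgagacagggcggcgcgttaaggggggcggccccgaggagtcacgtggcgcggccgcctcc
Plcg1: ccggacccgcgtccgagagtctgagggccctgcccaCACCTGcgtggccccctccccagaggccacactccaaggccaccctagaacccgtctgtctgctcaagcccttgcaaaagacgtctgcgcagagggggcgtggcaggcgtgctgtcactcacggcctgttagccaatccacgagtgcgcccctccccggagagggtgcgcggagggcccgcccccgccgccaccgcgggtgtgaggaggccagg
Each window held the E-box, and of the pair only Plcg2 held the Ikaros core. Over all 32851 windows, 17.2% held the E-box and 21.6% the Ikaros core. Neither window held a PU.1-type GAGGAAGT (2.44% of all windows) or an octamer ATGCAAAT (1.6%). No matches of different motifs overlapped in them. These matches are letters in a window and were not measured as binding.

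Plcg2 had signals of 12.85, 12.80 and 12.83 on the KO arrays, against 12.48, 12.57 and 12.51 on the WT arrays. It rose 1.24-fold (0.31 ± 0.044; limma adjusted p = 0.000914), with all KO arrays above all WT arrays. Plcg1 had signals of 12.15, 12.18 and 12.19 in KO cells, against 12.43, 12.49 and 12.44 in WT cells. It fell 1.22-fold (−0.28 ± 0.041; limma adjusted p = 0.00106), with all KO arrays below all WT arrays.

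Of the protein kinases C in the set, Prkcd rose and Prkcb did not pass. Outside the set, Prkca fell (−0.17, limma adjusted p = 0.0296) and Prkcq did not pass (0.060). Both are named in addition to the rule for named genes. Prkcd encodes PKC delta, which is linked to B cell tolerance, and had signals of 11.98, 11.91 and 12.01 in KO cells, against 11.73, 11.78 and 11.70 in WT cells. The difference was 0.23 ± 0.046 (limma adjusted p = 0.00702), without overlap. Prkcb, whose product PKC beta connects the receptor to NF-kB, had KO signals of 13.12, 13.17 and 13.14, all slightly above WT signals of 13.05, 13.07 and 13.04 (difference 0.088, adjusted p = 0.174).

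**Figure D2:**
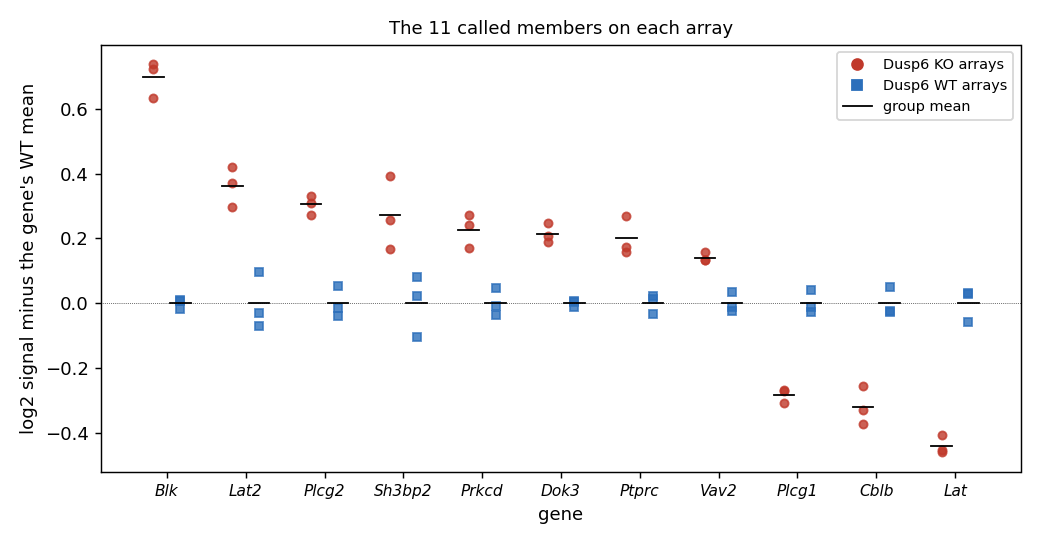
Log2 signal of the 11 called genes on each array, minus the gene's WT mean, with KO arrays (circles) left of WT arrays (squares) and lines at group means; genes run from the largest increase to the largest decrease. The KO and WT points are apart in every gene shown, by most in Blk and by least in Sh3bp2 and Vav2.

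The Vav exchange factors activate Rac, which drives actin remodelling together with WASP and HS1. All 3 Vav genes had positive differences, but 1 passed. Vav2 had signals of 10.29, 10.26 and 10.26 in KO cells, against 10.12, 10.16 and 10.10 in WT cells, and rose by 0.14 ± 0.040 (limma adjusted p = 0.0365). That call did not survive the removal of any 1 array (adjusted p from 0.0527 without WT replicate 2 to 0.125 without WT replicate 3), nor the replicate block (0.0841). Vav3 differed by 0.16 (adjusted p = 0.0624), with KO signals of 10.38, 10.42 and 10.49 above WT signals of 10.19, 10.29 and 10.34. Vav1, the form typical of blood cells, differed by 0.11 (adjusted p = 0.163).

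Further down this branch no gene of the set passed, and of these Hcls1 alone had an unadjusted limma p under 0.05 (0.0128). Hcls1, which encodes the actin regulator HS1, had signals of 12.86, 12.83 and 12.85 in KO cells, against 12.68, 12.74 and 12.74 in WT cells, a difference of 0.13 (adjusted p = 0.0609). The groups did not overlap, and the gene stood just outside the threshold, as did Vav3. The GTPase genes Rac1 (−0.022, interval −0.12 to 0.072) and Rac2 (0.065, interval −0.044 to 0.17) overlapped between the groups. Was, which encodes WASP, differed by −0.012 (interval −0.12 to 0.10). Outside the set, in the list of further pathway genes given below, Wipf1 (0.22, limma adjusted p = 0.0052) and Arpc1b (0.24, 0.00401) rose. Rac3 of that list fell (−0.18, 0.0133), and Cdc42 (0.11) and Wasl (−0.080) did not pass. These genes are named in addition to the rule for named genes.

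The calcium-responsive NFAT transcription factor genes did not pass either, and of the 3, Nfatc1 alone had an unadjusted limma p under 0.05 (0.0445). Nfatc1 had KO signals of 10.74, 10.71 and 10.73, above WT signals of 10.66, 10.67 and 10.51, with a difference of 0.12 (adjusted p = 0.151). Nfatc3 differed in the opposite direction by −0.089 (adjusted p = 0.174), with KO signals of 12.95, 12.97 and 12.92 below WT signals of 13.06, 13.03 and 13.01. Nfatc2 (−0.073) overlapped between the groups and lay below the array median on all 6 arrays. Among the 21 genes that were not called, the interval that reached farthest from 0 was that of Dapp1, at 0.31.

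Within the set, Plcg2 and Plcg1, and Lat2 and Lat, were called in opposite directions. In no other family did more than 1 gene of the set pass. The ratio of family members was compared within each array for 15 pairs. Such a ratio shows unequal change and does not say which member changed. The ratio of Lat2 to Lat was 1.74-fold higher in KO cells (log2 change 0.80), that of Blk to Fyn 1.72-fold higher (0.79) and that of Plcg2 to Plcg1 1.5-fold higher (0.59). Relative to the WT mean, the Plcg2 to Plcg1 ratio spanned 0.54 to 0.64 on the KO arrays, against −0.012 to 0.013 on the WT arrays. The ratio of Cblb to Cbl changed by −0.43 and that of Dok3 to Dok1 by 0.35. The groups did not overlap in 10 of the 15 pairs. Apart from the Rac and NFAT pairs, each of these 10 held a gene that was itself called, so the count partly restates those calls. The share among other pairs of genes was not computed. Among single genes at or above the median signal, the share without overlap was 50.9%. Each of those 10 gave an exact two-sided permutation p of 0.1, the smallest that 3 arrays against 3 allow, and 0.15 after adjustment over the 15 pairs. The 5 pairs that overlapped were the 3 among the Vav genes, Dok1 to Dok2 and Nfatc2 to Nfatc3.

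**Figure D3:**
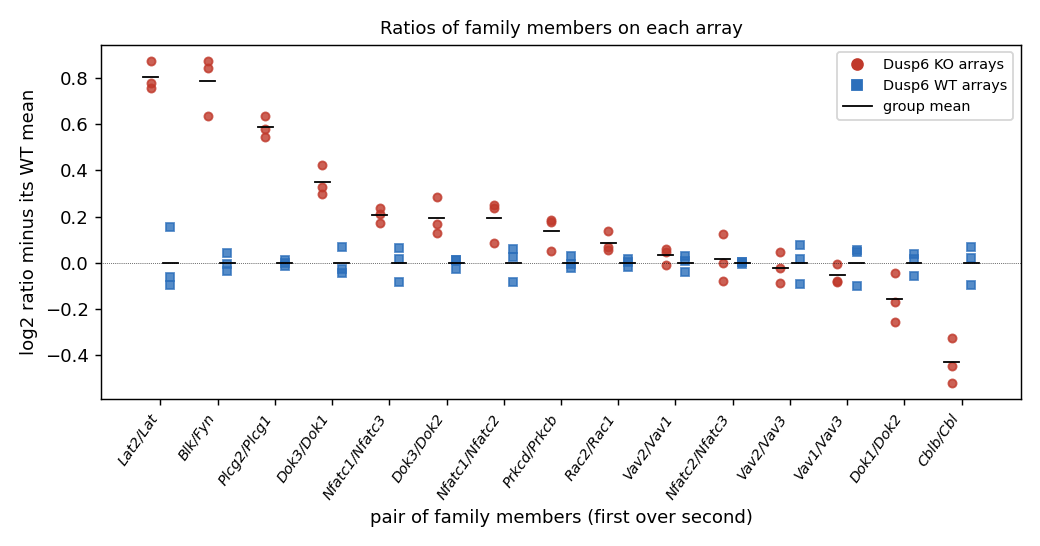
Log2 ratio of family members (first over second) on each array, minus the WT mean of that ratio, for 15 pairs, with KO arrays (circles) left of WT arrays (squares) and lines at group means. The ratios Lat2 to Lat, Blk to Fyn and Plcg2 to Plcg1 lie above 0.5 on every KO array and below 0.2 on every WT array, and Cblb to Cbl is below −0.3 on every KO array.

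The rest of the pathway was read from a list of 80 further genes, of which 67 were measured. In KO cells 12 of them rose and 13 fell, 37.3% of those measured, against 19.8% of all genes and 30.8% of bright genes, with a median difference of −0.0026. The largest increases were in inhibitory receptors of B cells: Cd22 rose by 1.33, Cd72 by 1.26 and Fcgr2b by 1.07. Malt1, the protease of the complex that activates NF-kB, rose by 0.57, and Rasgrp3, a RAS exchange factor, by 0.50. The decreases were led by Lcp2, the adaptor SLP-76 (−0.76), Ptpn22, a phosphatase that acts on Src family kinases (−0.60), and Sla2, an adaptor that dampens antigen receptor signalling (−0.57). Their limma adjusted p ranged up to 0.0014, for Rasgrp3, whose probe set lay below the lower quartile on all 6 arrays. Cd22 lay below the array median on the 3 WT arrays. Among genes of the receptor and the steps next to it, Cd79a (0.0040), Cd79b (−0.064), Syk (−0.11) and Btk (0.023) did not pass. The KO and WT arrays nevertheless did not overlap in Cd79b or Syk. Blnk, an adaptor of the same list, fell (−0.23, limma adjusted p = 0.00402). These genes were singled out after their values were seen.

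**Figure D4:**
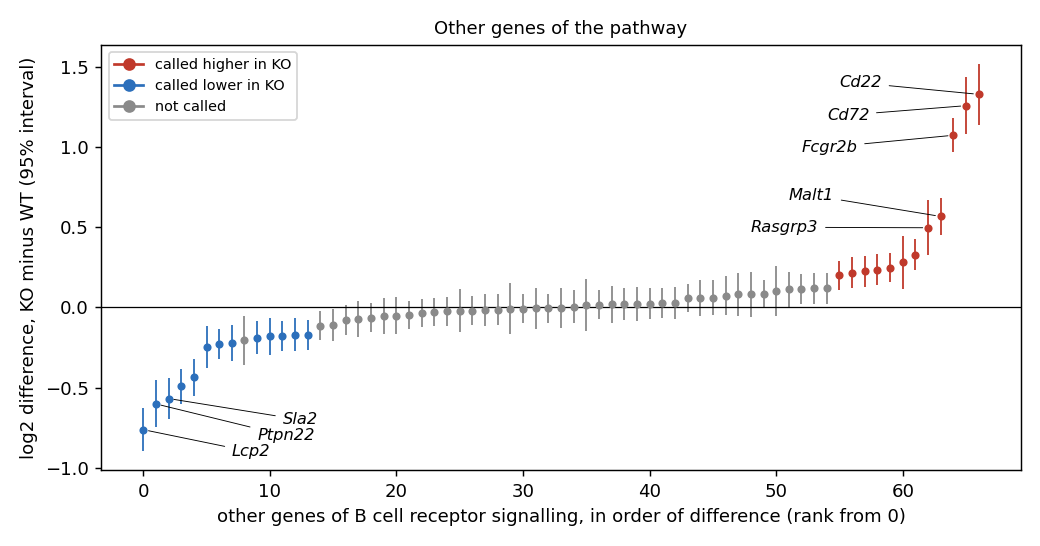
Log2 difference (KO minus WT) of the 67 measured further genes of B cell receptor signalling, in order of difference along the horizontal axis; points are limma estimates, bars unadjusted 95% intervals, colours show the call. Most lie close to 0, with Cd22, Cd72 and Fcgr2b above 1 at the right end and Lcp2 lowest at the left end.

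The labelled cell type was checked against markers. All 14 measured markers of B cell precursors lay above the array median on every array. Of these, 2 rose, 6 fell and 6 did not pass. The largest changes were the decreases of Dntt (−1.42), Rag2 (−0.43) and Il7r (−0.31). The 2 that rose, Cd93 (0.25) and Rag1 (0.20), are named in addition to the rule for named genes. The mean log2 signal of the 14 markers, Dntt included, was 12.50 to 12.52 on KO arrays and 12.69 to 12.71 on WT arrays. In RNA from a population, fewer cells of a kind and less RNA per cell cannot be told apart. The part that the changes of single stage markers, in either direction, have in those of Blk, Plcg2 and the other genes was not tested.

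Since Lat, Fyn and Plcg1 are also T cell genes, and Lat2 is also a mast cell and myeloid gene, markers of those cells were read beside them. Of 15 T and NK cell markers, 2 lay above the array median on every array. Their mean signal was 7.50 to 7.57 on KO arrays and 7.44 to 7.48 on WT arrays. Of these 15 markers, 9 had a difference above 0 and 6 below. Klrd1 (0.61) and Cd8b1 (0.23) rose and Zap70 fell (−0.15), the last with an adjusted p of 0.0437 that was lost without KO replicate 2 or 3 or any WT array (0.0605 to 0.15). Of 17 myeloid and mast cell markers, Lyz2 rose (0.70) and the other 16 did not pass. Their mean signal was 7.17 to 7.20 on KO arrays and 7.11 to 7.16 on WT arrays, and 7 of the 17 lay below the lower quartile of every array. Of 5 erythroid and megakaryocyte markers and 10 stromal markers, 0 passed in limma, with 0 at an unadjusted p under 0.05. The part of such cells in the changes of Lat, Plcg1 and Lat2 was not tested.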

How the data were processed

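Deposited values are log2 signals, 1 per probe set and array, made by the authors with RMA and Partek 6.5, per the submitters' processing notes; their range (3.23 to 14.8) gave the log2 scale. For RMA, the version, background setting and summary level were not given in the sources used here. No further normalization was applied. The platform annotation paired 21789 of 35556 probe sets with exactly 1 symbol. Each gene was represented by its brightest probe set, giving 19938 genes. Linear models with a genotype term were fitted to all 6 arrays in limma 3.58.1 (R 4.3.3) and moderated with eBayes, with Benjamini-Hochberg adjustment over all genes, and were tested on simulated data. Precision is limited by the number of arrays. The sources state no pairing of KO and WT arrays, so none was assumed. Same-numbered arrays gave no sign of pairing, but so few arrays cannot exclude it.

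The members and lists were chosen with earlier results of these data known. Dusp6 and all measured members were named. Of the 25 called pathway genes, the 8 with the largest absolute differences were named, and of each marker list up to 3 called genes by the same rule. A few others are marked where they appear. Promoter windows were those of RefSeq (GRCm38.p6), without the 50 bases after the start, found for 25 of the 32 genes and 9 of the 11 called. Orientation follows the gene's strand. Motifs were searched on both strands by exact letters.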

Additional observations from a re-analysis of the deposited data

How the results depend on the processing

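Alternatives were another normalization, filters on dim genes, other rules for probe sets, another variance model, the replicate number as a block, and leaving out each array. Over them, 6 to 11 genes of the set were called higher and 3 or 4 lower, with Blk the 1 gene past 1.5-fold each time. Blk, Plcg2, Plcg1, Lat, Cblb, Dok3 and Prkcd kept their calls under all 14 alternatives, and Lat2 under the 13 that tested it. The median difference of the set was 0.072 after a repeated quantile normalization, 0.057 with each array centred on its median, and 0.067 to 0.10 with 1 array left out. Sh3bp2 was also lost when every probe set was tested (adjusted p = 0.0734), and Vav2 with that setting (0.0644) and with centring (0.0515). Vav3 and Hcls1 passed in 4 settings each, and Dok1, Prkcb, Nfatc3 and Dapp1 in 1 each.

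Small differences changed sign with 1 array left out: Bank1 ranged from −0.026 to 0.14, Dok2 from −0.00050 to 0.049 and Was from −0.058 to 0.020, and the cause was not tested. With the replicate block, 7 genes of the set were called higher and 3 lower; Vav2 and Zap70 (adjusted p = 0.0947) lost their calls. Correlations of same-numbered arrays' deviations were 0.0098, −0.117 and 0.053, within the range of the other KO and WT pairs (−0.152 to 0.133). They gave no sign of pairing, but so few arrays cannot exclude it. With 3 arrays a group, no permutation test could pass 0.05.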
